A study of Mus musculus with 6 samples.

Results

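Dual-specificity MAP kinase phosphatases are encoded by Dusp genes, and 10 of them (Dusp1, Dusp2, Dusp4, Dusp5, Dusp6, Dusp7, Dusp8, Dusp10, Dusp14 and Dusp16) were examined here. They were chosen by name among the 55401 genes of the deposited count table, with earlier results of these data known. They were measured by bulk RNA sequencing of RAW264.7, a mouse macrophage-like cell line labelled wild type. Of the 6 libraries, 3 came from cells given 6.25 µg/ml of MoS2 (molybdenum disulfide, a layered metal sulfide) and 3 from cells given phosphate-buffered saline (PBS). Cells of both groups were grown in DMEM with fetal bovine serum and antibiotics. How long the cells were treated is not stated. Since nothing in the labels tells whether replicates were grown apart, the p-values cover the spread among these libraries, and that spread may be technical.

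MAP kinases (ERK, JNK and p38) are switched on when an upstream kinase phosphorylates a threonine and a tyrosine in their activation loop. Dual-specificity phosphatases remove both phosphates and so end the signal, and many of their genes are themselves switched on by MAP kinase signalling, which makes them negative feedback genes. They differ in where in the cell they act and in which MAP kinase they prefer, and in macrophages several of them are known to limit cytokine production after an inflammatory stimulus.

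Total counts were 15767618 to 18412762 per MoS2 library and 17008020 to 17695883 per PBS library. Levels are given as CPM, read counts scaled to a common library size with TMM factors (trimmed mean of M values, which assumes that most genes do not change). Scaling by library totals alone moved the median log2 fold change of all genes by -0.77, so every change below is relative to that choice, and values under library totals are given where they turn a direction or the balance of a list. Across genes, which do not count as replicates, Pearson's r of log2 CPM was 0.988 to 0.993 for libraries of the same group and 0.863 to 0.872 for a MoS2 with a PBS library. Macrophage markers such as Csf1r, Cd68, Lyz2 and Spi1 were abundant in both groups, with a summed level over 10 markers of 5196 to 5450 CPM with MoS2 and 7657 to 7836 CPM with PBS, although the receptor gene Mertk had 2 counts in each group. Summed marker levels of T cells, B cells, neutrophils, fibroblasts, epithelial and endothelial cells were each under 1 CPM in every library. In bulk RNA, a change in the number of cells that express a gene and a change in RNA per cell cannot be told apart.

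Of the promoter windows below, those of Dusp1, Dusp8 and Dusp5, which rose, carry matches to response elements known from stress and growth signals. That of Dusp6, the member that fell, holds no match to the motifs searched here. The windows of Dusp14 and Dusp10, which rose, and of Dusp7, whose direction is not settled, hold no such match either and are not printed. Whether the matches bear on the changes was not tested. Each window is the 250 bases before the RefSeq start of the gene (GRCm38.p6), read 5′ to 3′ on the gene's strand. This start can differ from that of the counted gene given below. The windows of Dusp1, Dusp8, Dusp10 and Dusp14 lie within the spans of the counted genes, and that of Dusp5 does so in part. Capitals mark TGACG or its reverse complement, the core of the cAMP response element (CRE) that factors of the CREB and ATF families bind, and CArG boxes, the element of serum response factor. The full CRE, TGACGTCA, holds this core on both strands, overlapping itself.

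Dusp1 (chr17:26508473-26508722, minus strand): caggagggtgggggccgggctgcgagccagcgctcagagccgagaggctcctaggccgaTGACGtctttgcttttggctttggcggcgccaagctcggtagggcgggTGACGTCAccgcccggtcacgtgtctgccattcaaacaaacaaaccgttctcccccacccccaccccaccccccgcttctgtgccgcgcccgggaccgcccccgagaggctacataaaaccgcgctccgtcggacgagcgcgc

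Dusp8 (chr7:142095285-142095534, minus strand): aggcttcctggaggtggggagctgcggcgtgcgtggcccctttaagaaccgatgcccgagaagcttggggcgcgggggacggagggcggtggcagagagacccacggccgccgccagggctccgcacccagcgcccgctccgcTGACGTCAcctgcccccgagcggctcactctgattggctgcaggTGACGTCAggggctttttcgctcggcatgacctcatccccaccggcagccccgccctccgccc

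Dusp5 (chr19:53528895-53529144, plus strand): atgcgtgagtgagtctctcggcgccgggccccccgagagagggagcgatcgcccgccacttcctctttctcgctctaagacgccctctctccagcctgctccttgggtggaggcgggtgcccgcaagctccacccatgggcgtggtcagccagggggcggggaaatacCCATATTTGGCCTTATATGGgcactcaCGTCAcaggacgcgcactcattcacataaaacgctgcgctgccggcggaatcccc

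Dusp6 (chr10:99262981-99263230, plus strand): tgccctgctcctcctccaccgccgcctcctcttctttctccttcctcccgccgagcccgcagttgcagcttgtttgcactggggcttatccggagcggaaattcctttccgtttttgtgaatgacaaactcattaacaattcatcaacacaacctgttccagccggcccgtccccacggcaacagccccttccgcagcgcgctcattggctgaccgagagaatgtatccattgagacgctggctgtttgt

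RefSeq windows were found for 9 of the 10 genes, all but Dusp4. The full CRE was present in 2 of the 9, at positions -143 to -136 of Dusp1 and at -107 to -100 and -63 to -56 of Dusp8, against 1.55% of 32851 mouse promoter windows of the same length. The TGACG core, on either strand and counting those inside full CREs, was present in 4 of the 9 (Dusp1, Dusp5, Dusp8 and Dusp16), against 17.8% of all windows. Dusp5 held 2 adjoining CArG boxes at -82 to -63, where 1.47% of all windows held any. The E-box CACGTG was found in Dusp1 and Dusp2 (6.02% of all windows). Neither the AP-1 motif TGANTCA (6.75%), the ATF4 and CHOP motif TGATGNAA (3.45%), the TATAAA box (12.4%) nor the kappaB site of NF-kB (3.90%) was found in any of the 9. The windows of Dusp6, Dusp7, Dusp10 and Dusp14 held none of the 8 motifs. The windows of all genes were matched in length but not in GC content, which ran from 56.4% (Dusp6) to 77.2% (Dusp7) in the 9. A difference from the rate over all windows therefore cannot be told apart from one of base composition, which was not tested. A match is a description of letters and was not tested for binding.

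**Figure D1:**
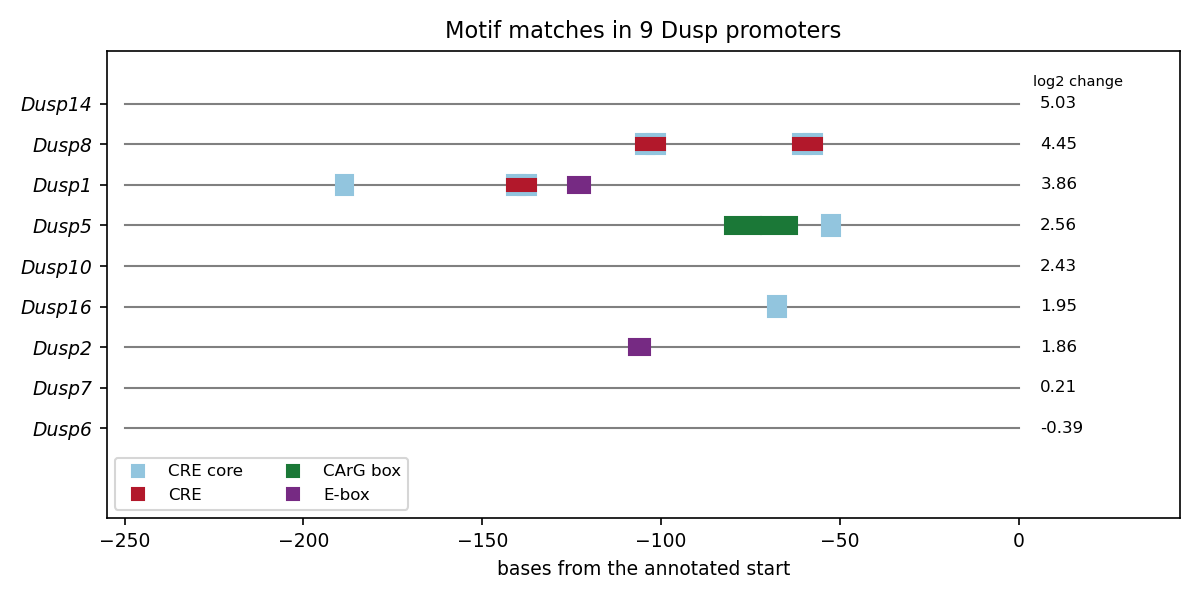
Motif matches in the 250 bases before the RefSeq start of 9 Dusp genes, in bases from that start (x axis). Genes are ordered by their log2 fold change, MoS2 over PBS, printed at the right. Full CREs lie in Dusp8 and Dusp1 and the CArG boxes in Dusp5, while Dusp14, with the largest change at 5.03, and Dusp6, at -0.39, show no match.

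All 10 genes passed the low-count filter, and 9 were called higher and 1 lower with MoS2 than with PBS by edgeR's quasi-likelihood test at an adjusted p under 0.05. Among all 12972 genes tested, 80.7% were called, 38.3% higher and 42.4% lower, so that a call by itself says little here and the split and size of the changes carry the description. The median log2 fold change of the 10 was 2.49, beside -0.08 over all genes tested. Dusp14, Dusp8, Dusp1 and Dusp4 stood at the 99.5th, 99.2nd, 98.7th and 97.8th percentile of log2 fold changes of all genes tested. The rises covered nuclear, JNK- and p38-directed and atypical members, while the cytoplasmic ERK phosphatase gene Dusp6 fell and its relative Dusp7 changed little. Every MoS2 library lay above every PBS library in CPM for 8 members (38.8% of all genes tested) and below for Dusp6 (43.1% of all genes tested). Scaled by library totals alone, 8 members were higher and 2 lower, beside 18.0% and 67.7% of all genes tested.

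**Figure D2:**
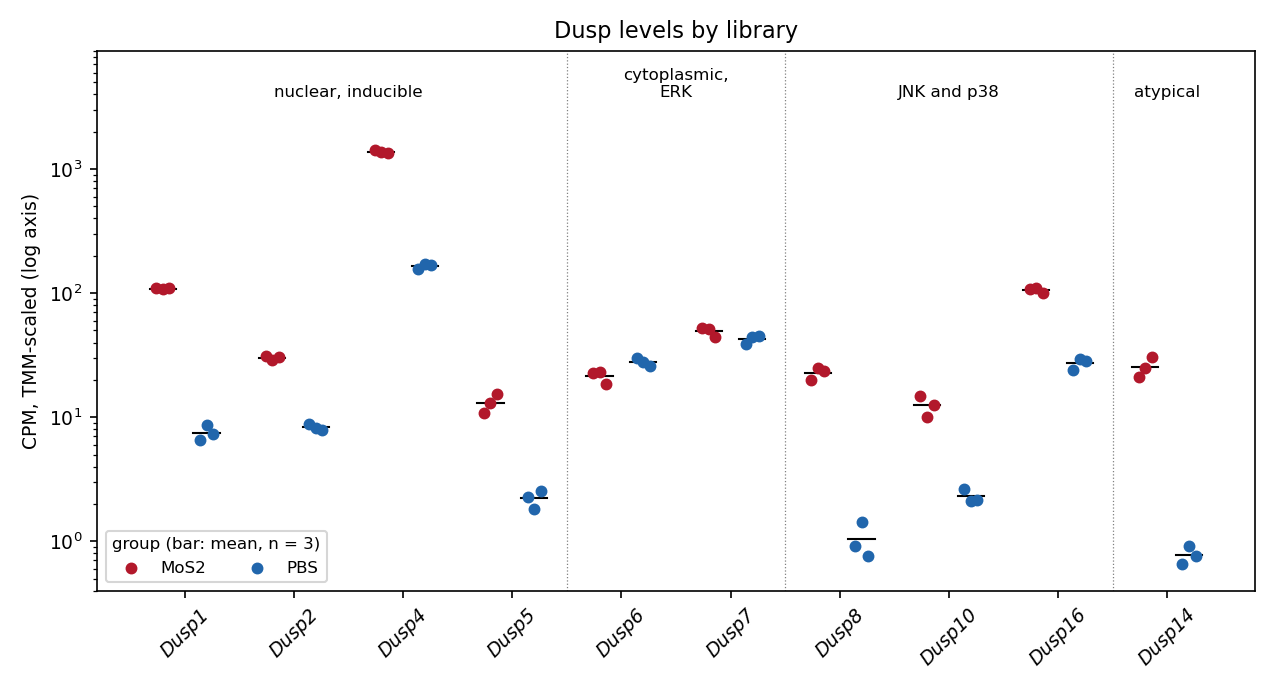
CPM of each Dusp gene (TMM-scaled, log axis) in the 3 MoS2 libraries (red, left of each pair) and the 3 PBS libraries (blue), with bars at the group means and genes ordered by role. The groups are apart for 9 genes and overlap for Dusp7, and Dusp4 is the most abundant by read count in both groups.

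The nuclear, inducible members rose together. Dusp1, whose product acts mainly on p38 and JNK in the nucleus and is a known brake on macrophage cytokine production, had 109.5, 107.9 and 109.4 CPM in the MoS2 libraries, against 6.55, 8.60 and 7.28 CPM in the PBS libraries. The 3 MoS2 values lay within counting noise of each other (a coefficient of variation of 0.84% where counting alone gives 2.67%), and all were far above the PBS values. Its log2 fold change was 3.86 ± 0.10 (SE, edgeR adjusted p = 5.3e-13). Dusp1 lies on GRCm38 chromosome 17, 26505590 to 26562128 on the minus strand (ENSMUSG00000024190.7), and 11 of its exon bases overlap Ergic1 on the other strand.

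Dusp4, whose nuclear product acts on ERK and also on JNK and p38, was the most abundant of the 10 in both groups, with 1422, 1385 and 1348 CPM with MoS2 and 157, 171 and 169 CPM with PBS. The lowest MoS2 library was far above the highest PBS library, and with 53324 counts in the MoS2 libraries and 11321 in the PBS libraries it is the most precisely measured member. Its log2 fold change was 3.06 ± 0.07 (edgeR adjusted p = 1.2e-13). The gene lies on GRCm38 chromosome 8, 34807297 to 34819894 on the plus strand (ENSMUSG00000031530.6).

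Dusp2, which encodes a nuclear phosphatase of ERK and p38 found mainly in blood cells, had 31.1, 29.1 and 30.6 CPM with MoS2, against 8.89, 8.21 and 7.95 CPM with PBS. Replicates differed by no more than counting alone gives, and the groups did not overlap. The log2 fold change was 1.86 ± 0.10 (edgeR adjusted p = 9.1e-10), the smallest of the nuclear members. Dusp2 lies on GRCm38 chromosome 2, 127336159 to 127338376 on the plus strand (ENSMUSG00000027368.6). Dusp5, a nuclear phosphatase selective for ERK, was low in both groups, with 10.8, 13.0 and 15.3 CPM with MoS2 and 2.25, 1.82 and 2.56 CPM with PBS. All MoS2 libraries were above all PBS libraries, and the log2 fold change was 2.56 ± 0.19 (edgeR adjusted p = 2.0e-08). The MoS2 libraries varied more than counting gives (a coefficient of variation of 17.3% where counting alone gives 7.71%). Dusp5 lies on GRCm38 chromosome 19, 53529109 to 53542431 on the plus strand (ENSMUSG00000034765.6). Of its exon bases, 547 overlap the antisense gene AC137853.2, which had 6 counts in the MoS2 libraries and 0 in the PBS libraries.

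The cytoplasmic, ERK-selective members did not share this rise. Dusp6, a feedback phosphatase of ERK, had 22.6, 23.1 and 18.4 CPM with MoS2, against 29.8, 28.0 and 25.8 CPM with PBS. All MoS2 libraries were below all PBS libraries, by a narrow margin. The log2 fold change was -0.39 ± 0.11 (edgeR adjusted p = 0.0041), and -1.16 with library totals. Against a fold of 1.2 rather than against no change, the fall of Dusp6 was not called (edgeR adjusted p = 0.063). Dusp6 lies on GRCm38 chromosome 10, 99263231 to 99267489 on the plus strand (ENSMUSG00000019960.8).

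Dusp7, the other cytoplasmic ERK phosphatase, had 52.5, 51.1 and 44.4 CPM with MoS2, against 38.7, 44.2 and 44.9 CPM with PBS. MoS2 replicate 3 lay below the highest PBS library, so the groups overlapped. Its log2 fold change of 0.21 ± 0.09 was called narrowly (edgeR adjusted p = 0.041). With library totals it was -0.56 and called lower (edgeR adjusted p = 9.3e-05), and the call was lost without MoS2 replicate 1 or 2 (0.17 and 0.19) and without PBS replicate 1 or 2 (0.14 and 0.23), so the direction for Dusp7 is not settled by these data. Dusp7 lies on GRCm38 chromosome 9, 106368632 to 106375724 on the plus strand (ENSMUSG00000053716.9).

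A comparison that needs no scaling factor is the ratio of members within a library. Reads per kilobase of Dusp6 over those of Dusp7 were 0.462, 0.484 and 0.445 in the MoS2 libraries, against 0.824, 0.680 and 0.617 in the PBS libraries. The groups did not overlap, so within each library Dusp6 stood lower relative to Dusp7 with MoS2. Reads per kilobase of Dusp1 over those of Dusp6 were 4.58, 4.42 and 5.62 with MoS2 and 0.208, 0.290 and 0.267 with PBS. Dusp1 was thus the lower of the pair in every PBS library and the higher in every MoS2 library.

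**Figure D3:**
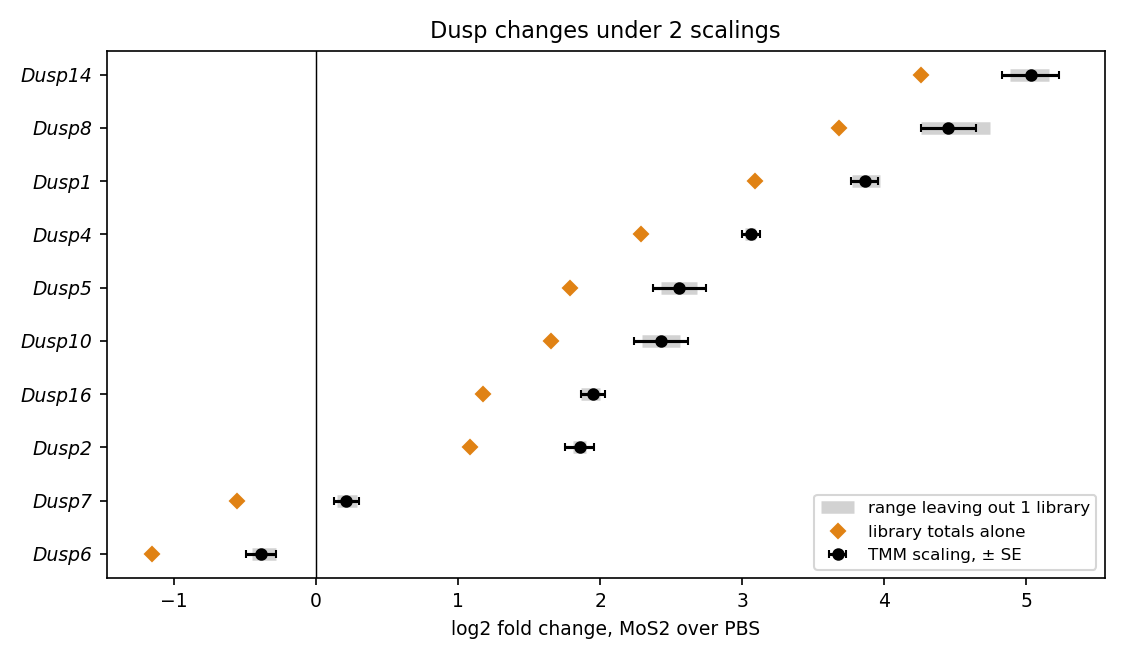
Log2 fold change, MoS2 over PBS, of the 10 Dusp genes with TMM scaling (black, ± SE), its range when 1 library is left out (grey band) and its value with library totals alone (orange). With either scaling 8 genes lie above 1, Dusp7 lies at 0.21 with TMM and at -0.56 with library totals, and Dusp6 lies below 0.

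The members that prefer JNK and p38 all rose. Dusp8 had 20.1, 24.9 and 23.6 CPM with MoS2, against 0.911, 1.43 and 0.764 CPM with PBS. The gene was close to the detection limit with PBS, where its counts were 21, 33 and 17, and clearly present with MoS2, at 252, 307 and 323 counts. The log2 fold change was 4.45 ± 0.19 (edgeR adjusted p = 1.1e-10), and 66 of its exon bases overlap the lncRNA gene Gm32786, which had no count in any library. Dusp8 lies on GRCm38 chromosome 7, 142079490 to 142095843 on the minus strand (ENSMUSG00000037887.11).

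Dusp16, which acts on JNK and p38 and shuttles between nucleus and cytoplasm, had 108, 109.8 and 100.2 CPM with MoS2, against 24.2, 29.6 and 28.6 CPM with PBS. The groups were well apart, and the log2 fold change was 1.95 ± 0.09 (edgeR adjusted p = 1.1e-10). Dusp16 lies on GRCm38 chromosome 6, 134715468 to 134792625 on the minus strand (ENSMUSG00000030203.17). Dusp10, a phosphatase of p38 and JNK known to restrain innate immune responses, had 14.8, 10.1 and 12.6 CPM with MoS2, against 2.64, 2.13 and 2.16 CPM with PBS. Its MoS2 libraries varied more than counting gives (a coefficient of variation of 19.0% where counting alone gives 7.90%) but all lay above the PBS libraries. The log2 fold change was 2.43 ± 0.19 (edgeR adjusted p = 3.3e-08). Dusp10 lies on GRCm38 chromosome 1, 184013302 to 184075636 on the plus strand (ENSMUSG00000039384.8).

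Dusp14 encodes a small, atypical phosphatase without the kinase-binding domain of the others, and had the largest log2 fold change of the 10, 5.03 ± 0.20 (edgeR adjusted p = 4.7e-11). It had 21.1, 25.1 and 30.6 CPM with MoS2, against 0.650, 0.912 and 0.764 CPM with PBS. Counts were 264, 310 and 418 with MoS2, and 15, 21 and 17 with PBS. Dusp14, like Dusp8, was thus barely detected in PBS cells. Its MoS2 libraries also varied more than counting gives (a coefficient of variation of 18.6% where counting alone gives 5.5%). The size of its rise is therefore less certain than that of Dusp1 or Dusp4. Dusp14 lies on GRCm38 chromosome 11, 84048041 to 84069261 on the minus strand (ENSMUSG00000018648.15).

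Levels of different genes were compared per length, in TPM, a level divided by gene length and computed from the deposited counts and lengths. TPM carries no TMM factor, so it serves to order genes within a group and not to compare a gene between groups. With MoS2 the order was Dusp4 (913 ± 60.3 TPM, SD, n = 3), Dusp1 (59.4 ± 2.43), Dusp2 (27.3 ± 0.975), Dusp7 (26.6 ± 3.39), Dusp16 (24.6 ± 2.31), Dusp14 (23.7 ± 3.68), Dusp6 (12.4 ± 2.01), Dusp5 (9.49 ± 1.4), Dusp8 (8.49 ± 1.07) and Dusp10 (7.38 ± 1.32). From Dusp2 to Dusp14, and again from Dusp6 to Dusp10, neighbours in this order overlapped between libraries. With PBS it was Dusp4 (257 ± 15.6 TPM), Dusp7 (54.0 ± 5.13), Dusp6 (37.8 ± 1.94), Dusp2 (17.7 ± 0.752), Dusp16 (15.0 ± 1.74), Dusp1 (9.6 ± 1.33), Dusp5 (3.81 ± 0.704), Dusp10 (3.23 ± 0.367), Dusp14 (1.7 ± 0.287) and Dusp8 (0.902 ± 0.296). Here Dusp5 and Dusp10 alone among neighbours overlapped. Dusp1 thus ranked by TPM below 1 member with MoS2 and below 5 with PBS, while Dusp6 ranked below 6 members with MoS2 and below 2 with PBS.

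As a share of the reads per kilobase of all 10 genes, which is free of scaling between libraries, Dusp4 took 82.6%, 82.1% and 81.6% in the MoS2 libraries, against 63.5%, 64.3% and 64.6% in the PBS libraries. Dusp6 and Dusp7 together took 3.64%, 3.67% and 3.17% with MoS2, against 23.4%, 22.7% and 22.7% with PBS. The cytoplasmic ERK phosphatases were thus a smaller part of the family's RNA in every MoS2 library. Their summed level in TMM-scaled CPM overlapped between groups, at 75.1, 74.2 and 62.8 with MoS2 and 68.5, 72.2 and 70.7 with PBS. With library totals both genes were lower (-1.16 and -0.56). The share of Dusp1 was 5.34 ± 0.118% with MoS2 and 2.39 ± 0.247% with PBS (SD, n = 3), and that of Dusp14 was 2.14 ± 0.442% with MoS2 and 0.422 ± 0.0557% with PBS. Dusp2 and Dusp16, although they rose, had smaller shares with MoS2, at 2.45 ± 0.0901% against 4.43 ± 0.430% for Dusp2 and 2.21 ± 0.0778% against 3.73 ± 0.251% for Dusp16 with PBS, while Dusp4 rose more.

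**Figure D4:**
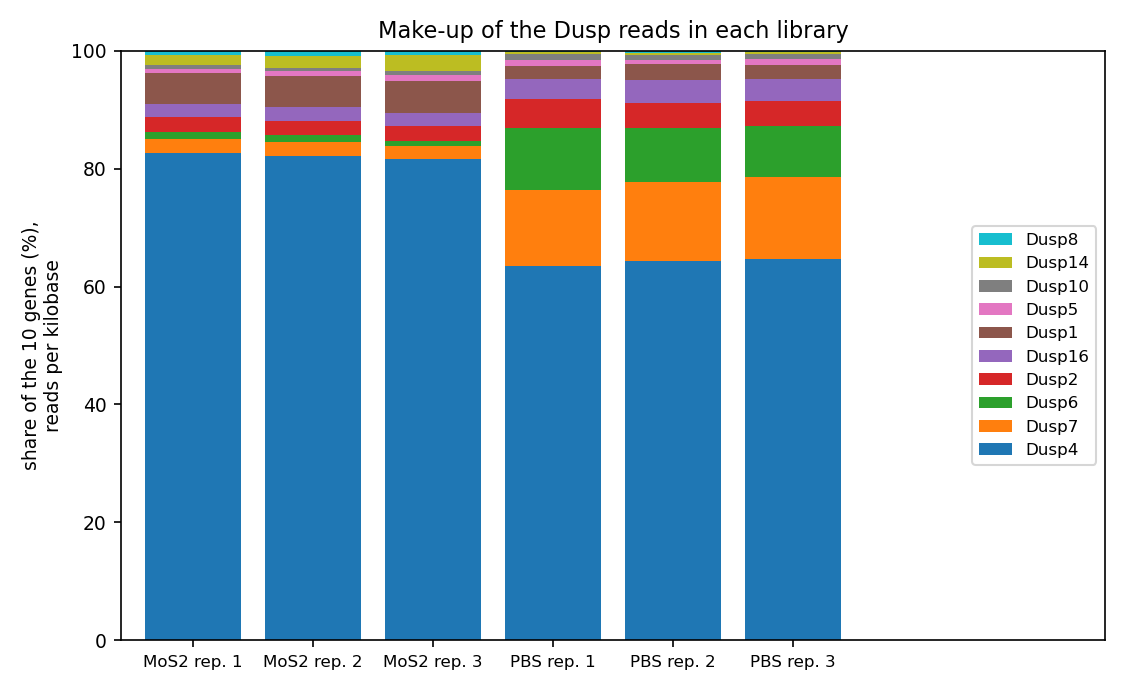
Share of each Dusp gene in the reads per kilobase of all 10, in percent (stacked bars from 0), for the 3 MoS2 libraries (left) and the 3 PBS libraries (right). Dusp4 fills 81.6% to 82.6% of the MoS2 bars and 63.5% to 64.6% of the PBS bars, and the bands of Dusp6 and Dusp7 are narrower in every MoS2 bar.

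The 3′ untranslated regions of some members hold AU-rich motifs, sequences that RNA-decay factors such as ZFP36 are known to bind in short-lived mRNAs. The 7-base motif TATTTAT occurred 3 times in Dusp1, once in Dusp2, 2 times in Dusp8 and in none of the other 7, in GENCODE M21 transcripts with the longest coding part. That is 30.0% of the members, beside 27.0% of 10986 tested coding genes with a 3′ untranslated region. By the density of ATTTA, Dusp2 (6.88 per kilobase) and Dusp1 (5.80 per kilobase) stood at the 96.9th and 95.2nd percentile of those genes, Dusp8 at 2.11 and Dusp6 at 0.841 per kilobase, and Dusp7 and Dusp14 had none. Among the members that rose were thus genes at the top of this scale and, in Dusp14, a gene without the motif.

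The MAP kinase genes went in both directions. Of 14 listed 10 were tested, with 5 higher and 2 lower (median log2 fold change 0.15), or 1 higher and 6 lower with library totals. Beside this list and those that follow, 38.3% of all genes tested were higher and 42.4% lower, or 18.0% and 67.7% with library totals. Mapk3, which encodes the kinase ERK1, rose to 376 ± 5.93 CPM with MoS2, against 161 ± 12.4 CPM with PBS (log2 fold change 1.22 ± 0.07, edgeR adjusted p = 9.8e-10). Mapk14, which encodes p38 alpha, the main p38 of macrophages, fell to 38.8 ± 0.561 CPM with MoS2, against 115 ± 1.86 CPM with PBS (-1.56 ± 0.07, edgeR adjusted p = 7.6e-11). The JNK genes Mapk8 and Mapk9 had log2 fold changes of -0.10 ± 0.09 and 0.03 ± 0.07 and were not called. Both were called lower with library totals, at -0.88 and -0.75. Mapk9 was called higher once the trend on gene length was removed (0.26, edgeR adjusted p = 0.003). Neither gene thus has a settled direction. Nlk, a MAP kinase-like kinase of Wnt signalling, rose by 0.81, or 0.04 and no call with library totals.

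Upstream kinases and kinases activated by MAP kinases were mixed. Of 6 tested MAP2 kinases 2 rose and 3 fell (median -0.17), or 0 and 6 with library totals. Among them Map2k4 and Map2k7, which activate JNK, had log2 fold changes of -0.54 ± 0.10 and -0.41 ± 0.08 (edgeR adjusted p = 1.4e-04 and 4.9e-04), the call of Map2k7 being lost once trends on length and GC were removed (-0.15). The ERK activator Map2k2 had 0.39, or -0.38 and a call in the other direction with library totals. Of 21 tested MAP3 kinases 3 rose and 10 fell (median -0.31), or 1 and 18 with library totals, with the stress-responsive Map3k20 at 1.55, Taok2 at -1.73 and Map3k1, an activator of the JNK pathway, at -1.54. Map3k8, which links Toll-like receptors to ERK, rose by 0.83, or 0.05 and no call with library totals. Of 9 tested MAPK-activated kinases 3 rose and 6 fell (median -0.28), or 2 and 6 with library totals, among them Mknk2, which phosphorylates the translation factor eIF4E, at 1.59, and the histone kinases Rps6ka5 and Rps6ka4 at -1.54 and -1.04.

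Other phosphatase genes also went in both directions. Of 16 other dual-specificity phosphatase genes, 10 were tested, and 2 rose and 3 fell (median -0.15), or 0 and 7 with library totals. Dusp3, a small atypical phosphatase of ERK and JNK, fell to 72.7 ± 3.84 CPM with MoS2, against 149 ± 3.85 CPM with PBS, Dusp18 had a log2 fold change of -1.37, and the RNA phosphatase gene Dusp11 rose by 0.76, which library totals turned into -0.01 without a call. Dusp9, another cytoplasmic ERK phosphatase, had 2, 1 and 3 counts in the MoS2 libraries and 16, 2 and 4 in the PBS libraries. It was not tested and is named after its values were seen. Of 10 tested genes for other phosphatases of MAP kinases 5 rose and 2 fell (median 0.24), or 3 and 6 with library totals. Dusp19 (1.08 ± 0.16, edgeR adjusted p = 3.6e-05) was the other dual-specificity gene that rose, and the tyrosine phosphatase gene Ptpn5 had 2.91 ± 0.253 CPM with MoS2 and 0.498 ± 0.0942 CPM with PBS (2.53 ± 0.32, edgeR adjusted p = 6.0e-06), both named after their values were seen. Ptpn7, a tyrosine phosphatase of ERK and p38 in blood cells, fell to 24.8 ± 0.865 CPM with MoS2, against 93.8 ± 3.31 CPM with PBS. The p53-induced phosphatase gene Ppm1d had -0.51, and the subunits of protein phosphatase 2A Ppp2r1a and Ppp2r2a rose by 1.28 and 1.18.

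Scaffolds and adaptors had 6 higher and 4 lower of 13 tested (median -0.02), or 1 and 10 with library totals, with the arrestin gene Arrb1 at -2.29, the TAK1 adaptor gene Tab2 at -0.83 and the JNK scaffold gene Mapk8ip3 at 0.86, or 0.08 and no call with library totals. Other feedback regulators of ERK had 4 higher and 3 lower of 10 tested (median 0.09), or 2 and 7 with library totals. Spred1, an inhibitor of RAS signalling to ERK, fell to 163 ± 3.44 CPM with MoS2, against 613 ± 17.8 CPM with PBS, while the EGF receptor inhibitor gene Errfi1 and the RAF inhibitor gene Pebp1 rose by 1.78 and 1.12. The Sprouty genes Spry2 (54 counts with MoS2 and 122 with PBS) and Spry4 (136 and 182 counts) were not called, at -0.34 ± 0.37 and 0.41 ± 0.24. With library totals Spry2 was called lower at -1.11, and Spry4 was at -0.36 without a call. Spry4 was called higher once the trend on gene length was removed (0.60, edgeR adjusted p = 0.030).

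Genes known as transcriptional targets of ERK in other cells had 7 higher and 3 lower of 13 tested (median 1.15), or 7 and 6 with library totals. Phlda1 rose by 6.14, and the urokinase receptor gene Plaur and the early response gene Ier3 rose by 2.49 and 2.43. Fos, a subunit of AP-1, had 14.0 ± 1.41 CPM with MoS2 and 6.28 ± 0.451 CPM with PBS, whereas Egr1, an early response transcription factor, fell to 17.5 ± 0.792 CPM with MoS2, against 33.1 ± 1.69 CPM with PBS. Over the 9 lists around the phosphatases, 37 entries were higher and 36 lower of 102 tested, that is 36.3% and 35.3%, beside 38.3% and 42.4% of all genes tested. With library totals they were 17 and 72 of the 102, beside 18.0% and 67.7% of all genes tested.

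**Figure D5:**
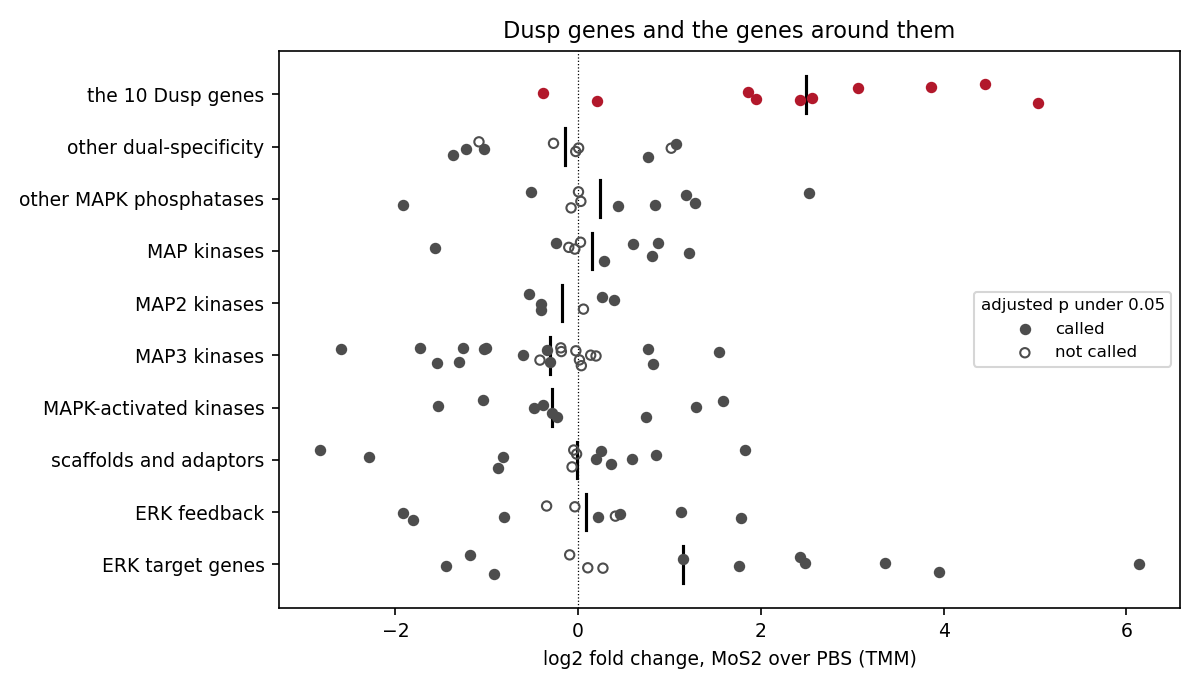
Log2 fold change, MoS2 over PBS, of the 10 Dusp genes (red) and of the tested genes of 9 lists around them (grey, filled where called at an edgeR adjusted p under 0.05), with a black bar at each median. The Dusp median is 2.49, that of ERK target genes 1.15, and those of the other 8 lists lie between -0.31 and 0.24.

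By the pattern of log2 CPM over the 6 libraries, centred per gene, the gene most like Dusp1 was Rgs16, which encodes a regulator of G protein signalling, with a root mean square difference of 0.074 on the log2 scale. Rgs16 had a mean of 10.5 CPM with MoS2 and 0.658 CPM with PBS, and a log2 fold change of 3.98. It was followed by the gene models Gm47586 (0.083) and Gm13012 (0.12), both of low level. Their log2 fold changes in the fit were larger than that of Dusp1, at 5.31 and 6.31. The log2 CPM compared here held a prior count of 2, which shrinks the group difference of genes with few counts. With 2 groups this likeness rests almost wholly on the size of the group difference after that shrinkage.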

How the data were processed

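RNA was measured in 3 MoS2 and 3 PBS libraries, per the labels' protocols from TRIzol extracts and NEBNext Ultra libraries sequenced as paired-end reads. The authors deposited raw read counts (whole numbers) for each gene, with its summed exon length. The tools listed per the submitters' processing notes are featureCounts 1.6.1, HISAT2 2.1.0 and fastp 0.20.0. GRCh38 is listed as the build, although it is human and the identifiers are mouse, of which 54349 of 55401 match GENCODE M21 (GRCm38) in version and coordinates. Neither strand setting nor handling of multi-mapping reads is stated.

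Counts were tested with edgeR 4.0.16 (limma 3.58.1, R 4.3.3) by the quasi-likelihood F test, with group as the only term, TMM factors, the default low-count filter (about 10 counts in 3 libraries, which kept 12972 genes) and Benjamini-Hochberg adjustment over all genes tested. Each fold change sets MoS2 over PBS (prior count 0.125), and its approximate SE was obtained by dividing the size of the log2 change by the root of F. TPM and shares used the deposited lengths. The fit was tested on simulated data. The alternatives were RLE and upper-quartile factors, library totals, other filters, DESeq2 1.42.0, limma-voom, a replicate term, stricter thresholds, removal of trends on gene length and leaving out each library. Removal of trends on length and GC content was added after seeing the data.

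The members and lists were chosen with earlier results of these data known. Besides the 10 members, the text names from each list the 3 genes of lowest adjusted p, a fixed set of kinases, phosphatases and feedback genes, and the 3 genes nearest Dusp1 in pattern. A gene that this rule picks is not reported here. Of 173 genes in the lists, 1 had no match in the table. Replicate libraries differed by more than counting noise, so none was counted as a repeat.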

Additional observations from a re-analysis of the deposited data

How the results depend on the processing

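Of the 10 Dusp genes, 8 kept their direction and their call in all 18 alternatives (Dusp1, Dusp2, Dusp4, Dusp5, Dusp8, Dusp10, Dusp14 and Dusp16), with their lowest log2 fold changes under library totals, from 1.08 for Dusp2 to 4.26 for Dusp14. Dusp6 stayed lower throughout, between -1.16 and -0.28, and lost its call only against a fold of 1.2 (-0.39, edgeR adjusted p = 0.063). Dusp7 reversed to -0.56 with library totals. It was no longer called with upper-quartile factors (0.082), no low-count filter (0.13), DESeq2 (0.22), an adjusted p under 0.01 or a fold of 1.2 (both 0.21), or the replicate block (0.21, adjusted p = 0.057). Leaving out 1 library gave 0.14 to 0.29 for Dusp7 and -0.45 to -0.28 for Dusp6. Removal of trends on length and GC content gave the highest value for Dusp7, 0.48. The cause was not tested.

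With library totals, 2334 genes were called higher and 8786 lower, against 4964 and 5502 with TMM, and 2 Dusp genes were lower. Against a fold of 1.2, edgeR called 0 Dusp genes lower (1 at an unadjusted p under 0.05), while DESeq2 and limma-voom, against no change, each called 1, Dusp6. In the 9 lists, 17 genes were called higher and 72 lower with library totals, beside 18.0% and 67.7% of all genes tested. Of 648 comparisons for 36 genes of the lists, 624 kept direction and call and 11 changed sign, in 6 genes. With library totals these were Mapk9 (-0.75), Map2k2 (-0.38), Spry4 (-0.36) and Dusp11 (-0.01). The others were changes of uncalled values that stayed uncalled, for Mapk8 with the length trend removed (0.19) and with the length and GC trends removed (0.073), for Mapk9 with upper-quartile factors (-0.10), without a low-count filter (-0.055) and without MoS2 replicate 3 or PBS replicate 1, and for Spry2 without PBS replicate 1. Leaving out 1 library gave -0.036 to 0.064 for Mapk9 and -0.61 to 0.10 for Spry2. Mapk9 and Spry4, not called in the main fit, were called higher with the length trend removed (0.26 and 0.60). The same held with the length and GC trends removed (0.16 and 0.58). By raw reads, not divided by length, Dusp4 took 78.0% of the family with MoS2 and 58.0% with PBS. Same-numbered libraries of the groups did not deviate together (r of -0.020, -0.011 and -0.14), and differently numbered ones had r of up to 0.15. With so few libraries this cannot exclude a pairing of the samples. The replicate block changed no call of a member other than that of Dusp7. At this depth Dusp8 and Dusp14 had 71 and 53 counts in all PBS libraries, which limits the precision of their fold changes.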
